A study of Mus musculus with 20 samples.

Results

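The 10 genes described here set whether a T cell lives or dies: the death ligand gene Fasl and its receptor gene Fas, the pro-survival genes Bcl2, Bcl2l1 and Mcl1, the BH3-only genes Bcl2l11, Bid and Pmaip1, and the pore-forming effector genes Bax and Bak1. They were chosen by symbol from the 22878 gene symbols of the RNA tables, and all 10 were found. Where a symbol had several transcript rows, the row with the most reads over all libraries was used, which concerned 4 of the 10 genes.

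Fas ligand on one cell engages Fas on another, or on the same cell, and the receptor recruits an adaptor and caspase-8. Inside the cell, Bcl2, Bcl-xL (from Bcl2l1) and Mcl-1 hold the effectors Bax and Bak in check, and BH3-only proteins such as Bim (from Bcl2l11), Bid and Noxa (from Pmaip1) release that restraint. In CD4 T cells the Fas pathway removes repeatedly stimulated cells, and Bim opposed by Bcl2 governs the loss of effector cells after a response.

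RNA was measured in 12 libraries of sorted mouse CD4 T cells, 2 for each of 6 groups, all from reporter mice on the C57BL/6 background. The spleen groups were CD44high CD25- CD4 T cells of naive ZTCE-tdTomato mice, whose T-bet gene drives ZsGreen and CreERT2 and whose Rosa26 locus carries a loxP-STOP-loxP-tdTomato allele. Both spleen groups were tdTomato+, the lasting mark of past T-bet expression, and they differed in carrying ZsGreen, the mark of current expression (ZsGreen+), or not (ZsGreen-). The lymph node groups came from T-bet-Cre mice with the same type of Rosa26 tdTomato allele, immunized with the AS15 peptide in complete Freund's adjuvant (CFA). Tetramer-positive cells of the draining nodes were sorted on day 16 into T follicular helper cells (Tfh, CXCR5high PD1high) and non-Tfh cells (CXCR5low PD1low), each divided into Tomato+ cells, with a history of T-bet expression, and Tomato- cells. In the T-bet-Cre mice Tomato reports that T-bet was once active, not that it still is. Animal age, the timing of Cre activation in the ZTCE-tdTomato mice and any pooling of animals are not given in the sources used here. No label says whether the 2 libraries of a group came from separate animals, so p-values measure the spread between libraries, which may be technical.

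Reads assigned to genes ranged from 13169783 to 24174592 per library. Levels are RPKM, reads per kilobase of transcript scaled to library size, and are given as mean ± SD of 2 libraries (n = 2). The gate gene Tbx21, which encodes T-bet, measured 45.3 and 46.4 RPKM in ZsGreen- libraries and 193 and 214 in ZsGreen+ libraries. It measured 10.4 to 12.9 RPKM in the 4 Tomato- libraries, 53.0 and 106 in Tfh Tomato+ and 163 and 183 in non-Tfh Tomato+. All 13 CD4 T cell identity genes had reads in every library, and the summed RPKM of 10 Tfh genes was 1627 to 2093 in Tfh libraries against 555 to 724 in non-Tfh libraries. Neutrophil markers stood apart in the lymph node, with S100a8 at 299.9 RPKM in Tfh Tomato- replicate 2 and 263 in non-Tfh Tomato- replicate 2, against 0.66 to 68.3 in the other 6 libraries, so lymph node results are also given without those 2 libraries where a call depends on them. In the spleen S100a8 was higher still, at 392 and 516 RPKM in ZsGreen- and 597 and 610 in ZsGreen+ libraries. Among the 10 genes the higher replicate exceeded the lower by a median of 1.09 times in the spleen and 1.35 times in the lymph node, where 12 of 40 pairs of replicates differed by more than 1.5 times.

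**Figure D1:**
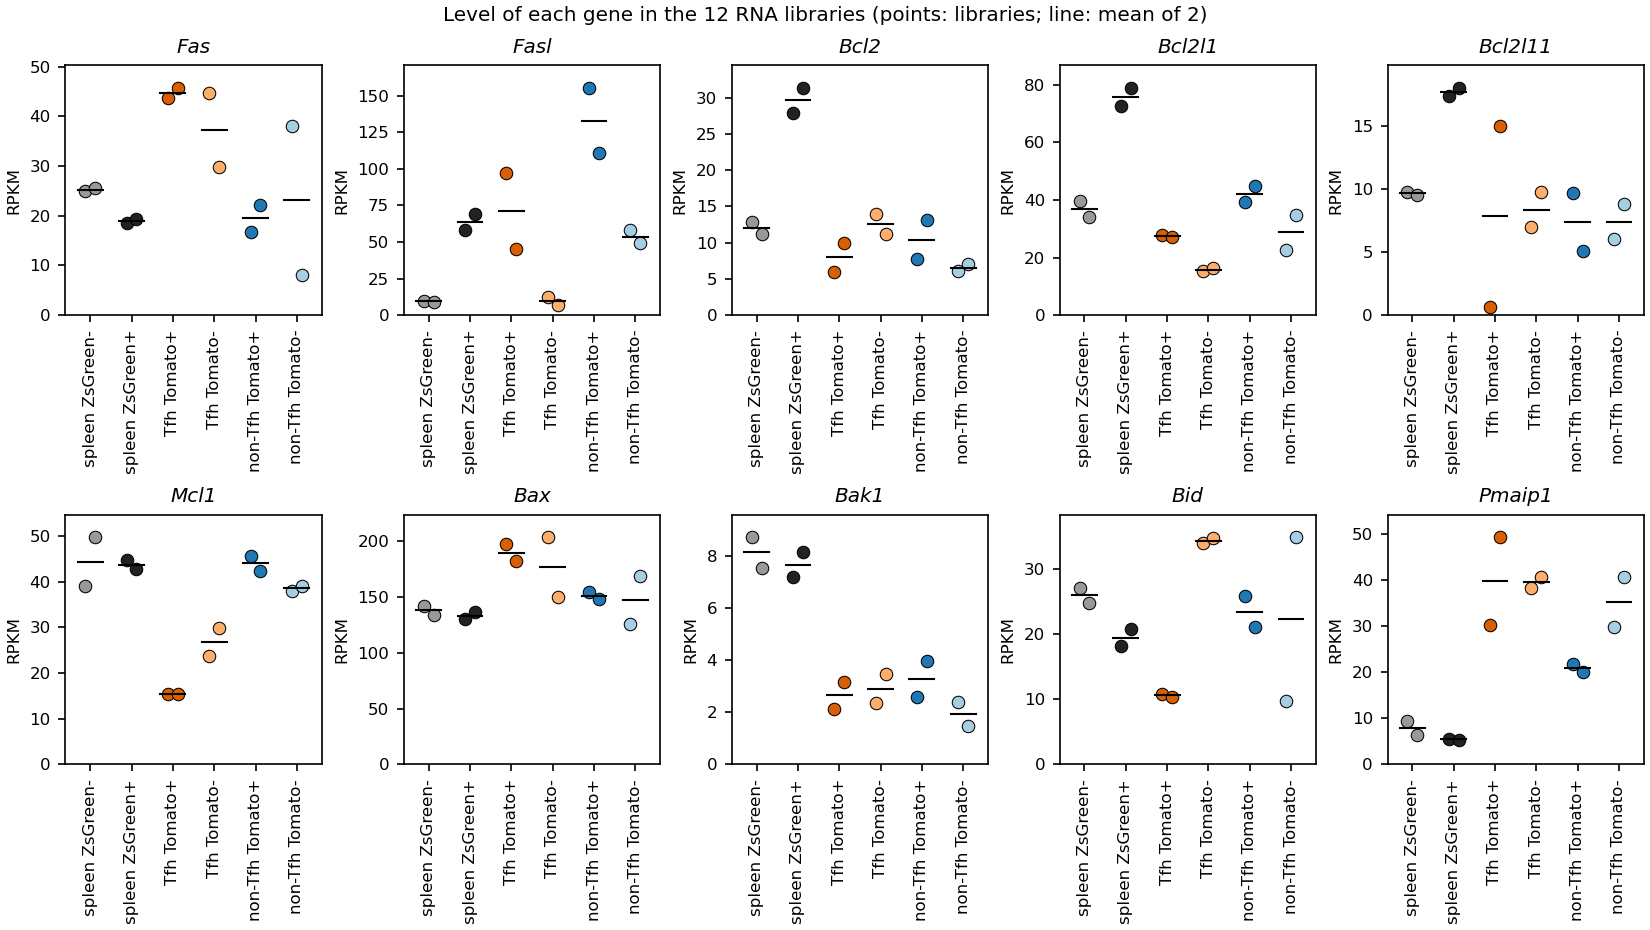
RPKM of each of the 10 genes (vertical axes, linear from 0, own scale per gene) in the 6 groups (horizontal axes); each point is 1 library and each line the mean of 2. Fasl is higher in each ZsGreen+ or Tomato+ group than in its partner group, and the Bcl2l11 points of Tfh Tomato+ lie at 0.61 and 15.0 RPKM.

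Among splenic memory-phenotype cells, ZsGreen+ cells carried more mRNA of Fasl and of the Bcl2 family members Bcl2, Bcl2l1 and Bcl2l11 than ZsGreen- cells. They carried less of Fas, Bid and Pmaip1. ZsGreen- libraries still held Tbx21 mRNA, at 45.3 and 46.4 RPKM against 193 and 214 in ZsGreen+. Less of it in each cell and fewer cells with it cannot be told apart in bulk libraries. Of the 10 genes, 4 rose and 3 fell at an adjusted p below 0.05 in edgeR's quasi-likelihood test, fitted on 12918 genes with Benjamini-Hochberg adjustment, while 23.8% of all tested genes passed, 11.4% higher and 12.4% lower. The groups did not overlap for those 7 genes, as for 62.7% of all tested genes. The median log2 fold change was -0.08 over the 10 genes and 0.00 over all tested genes.

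Fasl, the death ligand, changed most of the 10. It measured 9.96 and 9.11 RPKM in the ZsGreen- libraries and 58.5 and 69.2 in the ZsGreen+ libraries. Both ZsGreen+ values lay far above both ZsGreen- values, and the level was 6.51-fold higher (log2 fold change 2.70 ± 0.10 SE, edgeR adjusted p = 2.1e-07). Its receptor gene Fas moved the other way, with 24.9 and 25.7 RPKM in ZsGreen- and 18.5 and 19.3 in ZsGreen+ libraries. The groups did not overlap, and Fas fell by 0.46 ± 0.09 on the log2 scale (edgeR adjusted p = 0.0048).

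Markers of NK and innate-like T cells moved with Fasl in the spleen. The summed RPKM of the 10 markers was 117 to 119 in ZsGreen- and 334 to 400 in ZsGreen+ libraries, and all 10 had reads in both groups. Zbtb16, the regulator of innate-like T cells, measured 1.97 and 1.45 RPKM in ZsGreen- against 23.2 and 25.2 in ZsGreen+, and the NK receptor gene Ncr1 2.84 and 2.60 against 20.1 and 17.1. Cd4 itself measured 362 and 381 RPKM in ZsGreen- and 199 and 189 in ZsGreen+ libraries. Other lists were also higher in ZsGreen+ libraries: the summed RPKM of 11 neutrophil markers was 784 to 1058 in ZsGreen- and 1157 to 1203 in ZsGreen+, that of 14 macrophage and monocyte markers 431 to 452 against 515 to 643, and that of 10 dendritic cell markers 779 to 827 against 916 to 955. All genes of these 3 lists had reads in both groups. The part of any of these cells in the Fasl result or in the other spleen results was not tested. In bulk libraries such as these, fewer cells of a type and less RNA per cell cannot be told apart.

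Among the pro-survival genes, Bcl2 and Bcl2l1 rose in ZsGreen+ cells and Mcl1 did not pass the test. Bcl2, the founding member of the family, measured 12.9 and 11.2 RPKM in ZsGreen- and 27.9 and 31.3 in ZsGreen+ libraries, 2.40-fold higher (log2 fold change 1.26 ± 0.09 SE, edgeR adjusted p = 7.7e-06). Bcl2l1 measured 39.7 and 34.1 against 72.7 and 78.9 RPKM, also higher (log2 fold change 1.0 ± 0.09 SE, adjusted p = 3.0e-05). For both genes the groups were clearly apart. Mcl1, which encodes a short-lived pro-survival protein, measured 39.0 and 49.7 against 44.7 and 42.6 RPKM, with overlapping groups (log2 -0.06 ± 0.12 SE, adjusted p = 0.76). The summed RPKM of the 3 genes was 91.5 and 95.03 in ZsGreen- libraries and 145 and 153 in ZsGreen+ libraries. Mcl1 made up 42.6% and 52.3% of that sum in ZsGreen- libraries and 30.8% and 27.9% in ZsGreen+ libraries, and Bcl2 14.1% and 11.8% against 19.2% and 20.5%.

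The BH3-only genes did not move together in the spleen. Bcl2l11, which encodes Bim, rose with Bcl2, from 9.77 and 9.57 RPKM to 17.4 and 18.0 (log2 fold change 0.83 ± 0.08 SE, edgeR adjusted p = 3.9e-05). The ratio of Bcl2 to Bcl2l11 RPKM was 1.32 and 1.17 in ZsGreen- and 1.61 and 1.74 in ZsGreen+ libraries. Bid, whose protein links death receptors to mitochondria once cleaved, fell from 27.1 and 24.8 to 18.2 and 20.8 RPKM (log2 -0.45 ± 0.09 SE, adjusted p = 0.0061). Pmaip1, a p53 target that encodes Noxa, measured 9.53 and 6.31 RPKM in ZsGreen- and 5.57 and 5.33 in ZsGreen+ libraries (log2 -0.57 ± 0.17 SE, adjusted p = 0.0375). The Pmaip1 groups lay close together, and the call was lost without ZsGreen- replicate 1, where the log2 fold change was -0.27, and in limma on log2(RPKM + 1) and on log2(RPKM + 0.1). The effectors did not pass. Bax measured 142 and 134 against 130.1 and 136 RPKM (log2 -0.09 ± 0.07 SE, edgeR adjusted p = 0.42). Bak1 measured 8.73 and 7.56 against 7.21 and 8.16 RPKM (log2 -0.12 ± 0.12 SE, adjusted p = 0.52).

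Other genes of the cell death pathway, from lists of 53 genes, were called at a rate near that of all genes in the spleen. Of 50 tested, 7 rose and 6 fell, with a median log2 fold change of 0.04. Of all tested genes 11.4% rose and 12.4% fell. Among death ligands and receptors 3 of 8 rose, among them Tnfrsf1a, a TNF receptor gene, at 40.4 ± 2.36 RPKM in ZsGreen+ (log2 fold change 1.16 ± 0.09 SE, edgeR adjusted p = 1.2e-05) and Tnfsf10, which encodes the death ligand TRAIL, at 10.9 ± 0.65 RPKM (log2 1.14 ± 0.11 SE, adjusted p = 8.3e-05). Bik, a BH3-only gene, rose from 2.56 to 7.996 RPKM in the means (log2 1.60 ± 0.20 SE, adjusted p = 0.00038). Of 11 genes of the death-receptor complex 1 fell, and of 6 p53 genes 1 rose and 3 fell. Of 12 genes of the execution of cell death 2 fell and none rose. The genes given with levels here all rose, and none of the 6 that fell is among them. Both called genes of the pro-survival list, of 5 tested, belong to the Bcl2a1 family of near-identical copies, between which short reads may be split wrongly.

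**Figure D2:**
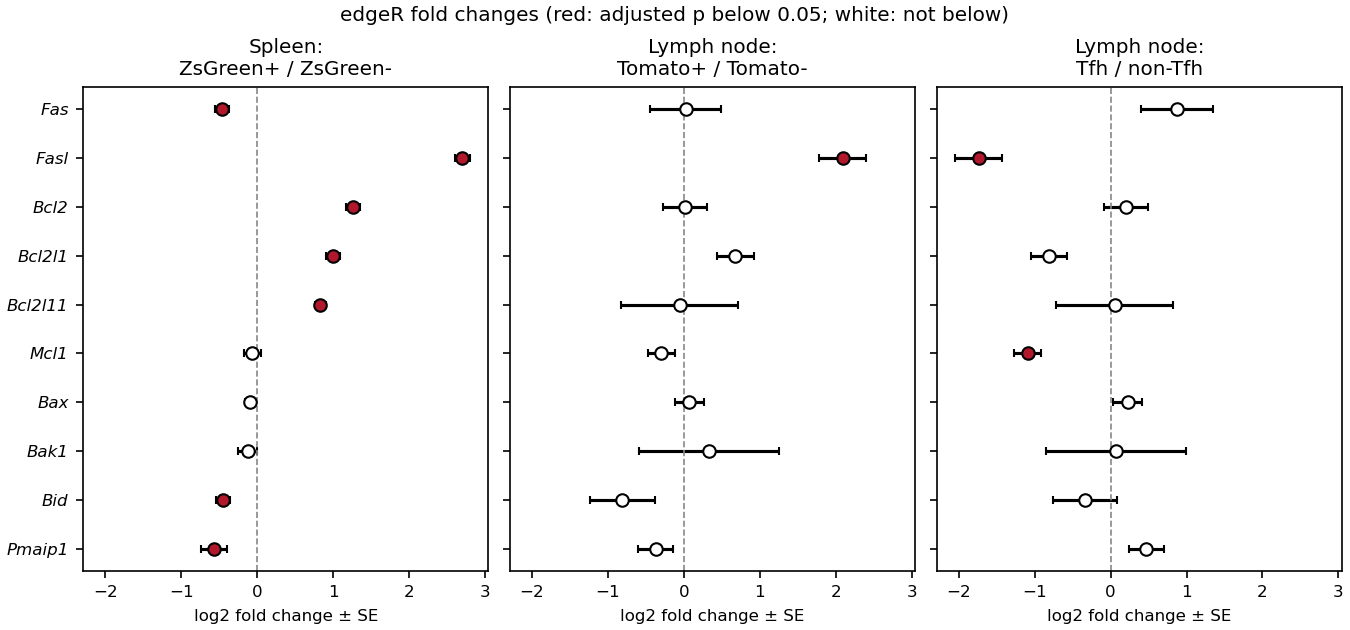
Log2 fold change ± SE (horizontal axis; edgeR, 2 libraries a group) of each gene (vertical axis) for ZsGreen+ over ZsGreen- in the spleen, Tomato+ over Tomato- in the lymph node averaged over Tfh and non-Tfh, and Tfh over non-Tfh averaged over Tomato states; red points have an adjusted p below 0.05. In the spleen 7 of 10 points are red, and in the lymph node Fasl in both panels and Mcl1 in the right one.

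In antigen-specific lymph node cells, 2 of the 10 genes passed a test, and only in averaged comparisons. Fasl was higher with a history of T-bet and lower in Tfh cells, and Mcl1 was lower in Tfh cells. Tomato+ against Tomato-, averaged over both populations, called 0.656% of all tested genes. Tfh against non-Tfh, averaged over the Tomato states, called 1.07%. The Fasl and Mcl1 calls were each lost without certain single libraries, as given below. The replicate spread was much wider in the lymph node, with a common biological coefficient of variation of 0.91 against 0.087 in the spleen. Lymph node libraries had reads for 11154 to 11805 genes and spleen libraries for 15080 to 15326. The part of that difference in the spread, and in levels set against the spleen, was not tested. The 8 libraries were fitted together on 11746 genes.

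Fasl measured 97.1 and 44.9 RPKM in Tfh Tomato+ libraries and 12.5 and 7.17 in Tfh Tomato- libraries. In non-Tfh cells it measured 155 and 110.5 RPKM in Tomato+ libraries and 58.0 and 49.0 in Tomato- libraries. Within each population both Tomato+ values exceeded both Tomato- values, while over all 8 libraries the Tomato states overlapped. Averaged over both populations, Fasl was 4.26-fold higher in Tomato+ cells (log2 fold change 2.09 ± 0.31 SE, edgeR adjusted p = 0.0277), in a comparison that called 0.656% of genes, 0.477% as higher. The call was lost without Tfh Tomato- replicate 2, without either non-Tfh Tomato+ library and without either non-Tfh Tomato- library, with log2 fold changes of 1.92 to 2.16, and without replicate 2 of both Tomato- groups (1.87).

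Within single populations the Tomato difference in Fasl did not pass in the edgeR fit, though in Tfh cells it did under 5 of 17 alternatives. The log2 fold change was 2.84 ± 0.45 SE in Tfh cells (edgeR adjusted p = 0.0912, unadjusted 0.00021) and 1.34 ± 0.43 SE in non-Tfh cells (adjusted p = 0.40), where 0.111% and 0.332% of genes were called. In Tfh cells the adjusted p was 7.2e-08 in DESeq2, 0.015 with no filter, 0.035 with the replicate block, 0.039 in limma on log2(RPKM + 1) and 0.046 without Tfh Tomato+ replicate 2. The test of the difference between those effects gave 1.505 ± 0.60 SE with an adjusted p of 0.77. That test called 0 genes in edgeR, with 746 at an unadjusted p below 0.05, 143 called in DESeq2 and 0 in either limma fit. None of the 10 genes was called in it.

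Fasl was lower in Tfh than in non-Tfh cells, 3.34-fold on average over the Tomato states (log2 -1.74 ± 0.31 SE, edgeR adjusted p = 0.0447), where 1.07% of genes were called, 0.519% as lower. The 4 Tfh values, 7.17 to 97.1 RPKM, overlapped the 4 non-Tfh values, 49.0 to 155, through Tfh Tomato+ replicate 1. The Tfh difference was -0.99 ± 0.43 SE among Tomato+ cells (adjusted p = 0.61) and -2.49 ± 0.45 SE among Tomato- cells (adjusted p = 0.0994), where 0.0766% and 0.179% of genes were called. Among Tomato- cells it passed in DESeq2 (adjusted p = 3.2e-06), with no filter (0.025) and with the replicate block (0.041). The averaged call was kept without Tfh Tomato+ replicate 1 and lost without each of the other 7 libraries, with log2 fold changes of -1.96 to -1.51, and without replicate 2 of both Tomato- groups (-1.61).

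The order of Fasl over the 6 groups did not follow Tbx21. Non-Tfh Tomato- libraries had Tbx21 at 10.4 and 10.5 RPKM and Fasl at 58.0 and 49.0, whereas Tfh Tomato- libraries had Tbx21 at 12.8 and 12.9 and Fasl at 12.5 and 7.17. The spleen ZsGreen- libraries, with Tbx21 at 46.4 and 45.3 RPKM, had Fasl at 9.96 and 9.11. From highest to lowest mean the order of Fasl was non-Tfh Tomato+ (133 ± 31.6 RPKM), Tfh Tomato+ (71.0 ± 36.9), spleen ZsGreen+ (63.8 ± 7.60), non-Tfh Tomato- (53.5 ± 6.37), Tfh Tomato- (9.82 ± 3.76) and spleen ZsGreen- (9.54 ± 0.60). Tfh Tomato+ and spleen ZsGreen+ overlapped, as did the 2 lowest groups. The authors scaled each library on its own and the tissues came from different mouse lines, so levels across tissues are a description.

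**Figure D3:**
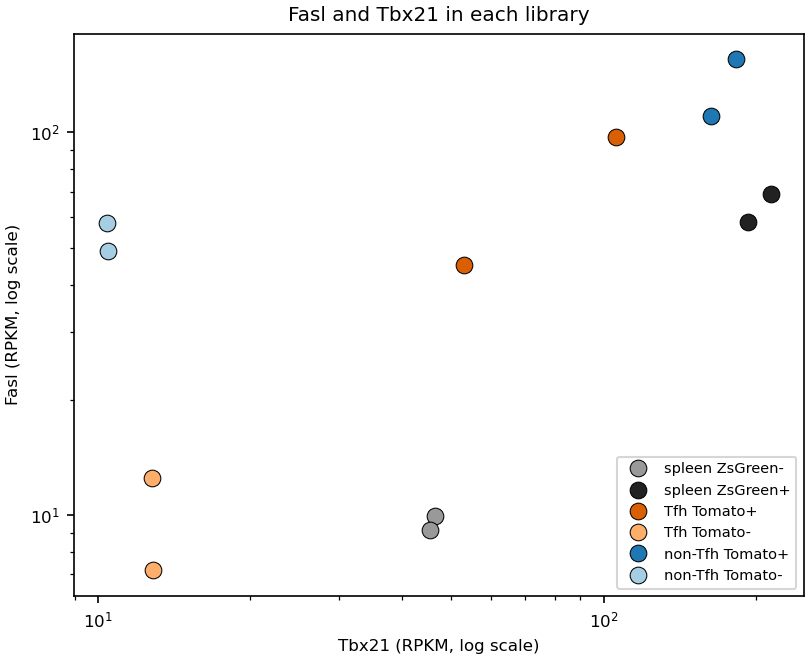
Fasl RPKM (vertical, log scale) against Tbx21 RPKM (horizontal, log scale), 1 point per library, coloured by group. The 4 Tomato- libraries share a Tbx21 level of 10.4 to 12.9 RPKM, and Fasl there is 49.0 and 58.0 in non-Tfh but 7.17 and 12.5 in Tfh.

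Markers of other cells were also unequal across the lymph node groups. The summed RPKM of 14 macrophage and monocyte markers was 361 to 508 in Tfh Tomato+, 982 to 1142 in Tfh Tomato-, 130.1 to 200.5 in non-Tfh Tomato+ and 1397 to 1505 in non-Tfh Tomato-. It was thus lower in Tomato+ groups, where Fasl was higher, and its part in the results was not tested. The 10 NK and innate-like markers summed to 253 to 283 RPKM in non-Tfh Tomato-, 151 to 166 in Tfh Tomato-, 120 to 121 in non-Tfh Tomato+ and 103 to 111 in Tfh Tomato+. This sum and the macrophage and monocyte sum were both highest in non-Tfh Tomato- and next highest in Tfh Tomato-. The part of macrophages and monocytes in the NK and innate-like sum was not tested. Ncr1, the defining NK receptor gene, was higher in Tomato+ libraries, as Fasl was: it measured 7.03 and 4.45 RPKM in Tfh Tomato+, 0 in both Tfh Tomato- libraries, 2.06 and 0.94 in non-Tfh Tomato+ and 0.028 and 0.036 in non-Tfh Tomato-. In both libraries of a group, Zbtb16 was at 0 in Tfh Tomato+, Klra1 in both Tomato- groups and Klra7 in non-Tfh Tomato-. The part of these cells in the Fasl results was not tested. The dendritic cell markers summed to 1720 to 3410 RPKM in the 4 Tomato- libraries and 610 to 1015 in the 4 Tomato+ libraries, with Clec9a at 0 in 3 of the 4 groups. The 11 neutrophil markers summed to 37.9 and 533 RPKM in Tfh Tomato- and 58.7 and 455 in non-Tfh Tomato-, against 1.62 and 4.89 in Tfh Tomato+ and 1.101 and 87.9 in non-Tfh Tomato+. Of them, Elane and Mpo were at 0 in all 8 libraries. The part of dendritic cells and neutrophils in the results was not tested.

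The promoter of Fasl is shown because this gene passed in both tissues, with the capitals marking the reverse complement of a T-box core motif. The promoter letters are RefSeq's, build GRCm38.p6, for the 250 bases before the gene's start on the gene's own strand, and 9 of the 10 genes had an entry.
Fasl (chr1:161788496-161788745, minus strand): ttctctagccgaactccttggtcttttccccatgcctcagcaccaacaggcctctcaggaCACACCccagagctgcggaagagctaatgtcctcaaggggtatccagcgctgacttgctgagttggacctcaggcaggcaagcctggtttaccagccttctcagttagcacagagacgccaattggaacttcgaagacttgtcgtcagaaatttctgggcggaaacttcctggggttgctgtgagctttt
The 4 motifs searched on both strands were GGTGTG (T-box core), TTCNNNGAA (STAT), GTAAACA (forkhead) and the NF-kB motif, GGG and TTTCC with any 2 bases between them, chosen after the values were seen. They matched in 16.3%, 7.04%, 3.17% and 1.40% of the 32536 promoters of the same length in the table. The T-box core lay at positions -190 to -185 of Fasl and -140 to -135 of the first of 3 Bcl2l1 entries. A match describes letters and is neither a shown site nor a cause.

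Mcl1 was the only other of the 10 genes called in the lymph node. It measured 15.3 and 15.5 RPKM in Tfh Tomato+ libraries and 23.7 and 29.9 in Tfh Tomato-, against 45.5 and 42.4 in non-Tfh Tomato+ and 37.9 and 39.1 in non-Tfh Tomato-. All 4 Tfh values lay below all 4 non-Tfh values, a separation found in 6.56% of tested genes. On average over the Tomato states Mcl1 was 2.13-fold lower in Tfh cells (log2 -1.09 ± 0.18 SE, edgeR adjusted p = 0.0369). The call was lost without any 1 of the 8 libraries (log2 -1.18 to -1.001, adjusted p = 0.058 to 0.14), in both limma fits and without replicate 2 of both Tomato- groups (-1.16). With the replicate number as a block it was also lost (-1.09). The Tfh difference was -1.60 ± 0.26 SE among Tomato+ cells (adjusted p = 0.087) and -0.58 ± 0.25 SE among Tomato- cells (adjusted p = 0.56). The first passed in DESeq2 (adjusted p = 5.0e-05) and with no filter (adjusted p = 0.048). For Tomato+ against Tomato-, averaged over both populations, the Mcl1 log2 difference was -0.30 ± 0.18 SE (edgeR adjusted p = 0.63). The summed macrophage and monocyte markers, given above, were higher in Tfh among Tomato+ cells and lower in Tfh among Tomato- cells, and their part in the Mcl1 result was not tested.

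The other pro-survival genes did not pass in the lymph node. Bcl2l1 measured 27.8 and 27.2 RPKM in Tfh Tomato+, 15.3 and 16.4 in Tfh Tomato-, 39.1 and 45.0 in non-Tfh Tomato+ and 22.8 and 34.7 in non-Tfh Tomato-. The Tfh Tomato- libraries were the lowest and the non-Tfh Tomato+ libraries the highest. The averaged log2 difference was -0.81 ± 0.24 SE for Tfh against non-Tfh (edgeR adjusted p = 0.23) and 0.68 ± 0.24 SE for Tomato+ against Tomato- (adjusted p = 0.37). Among Tomato- cells alone, Tfh against non-Tfh gave -0.91 ± 0.34 SE for Bcl2l1 (adjusted p = 0.48). Bcl2 measured 5.91 and 10.01 RPKM in Tfh Tomato+, 14.0 and 11.2 in Tfh Tomato-, 7.72 and 13.1 in non-Tfh Tomato+ and 6.05 and 7.03 in non-Tfh Tomato-. In the row used the Tomato states were apart within each population, Tomato+ lower in Tfh and higher in non-Tfh cells, and all 8 values lay below the 27.9 and 31.3 of spleen ZsGreen+.

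The summed RPKM of Mcl1, Bcl2l1 and Bcl2 was lowest in Tfh cells, 49.0 to 57.5 over the 4 libraries, against 66.7 to 100.5 in non-Tfh libraries. Within that sum Bcl2l1 made up 56.7% and 51.6% in Tfh Tomato+ and 28.9% and 28.6% in Tfh Tomato-. Bcl2, in the row used, made up 12.1% and 19.0% in Tfh Tomato+ and 26.4% and 19.5% in Tfh Tomato-. In the 4 non-Tfh libraries it made up 8.36% to 13.1%. The other Bcl2 transcript row read 34.5 RPKM in non-Tfh Tomato+ replicate 2, above all 4 Tfh values (12.003 to 28.2). The remaining non-Tfh values in that row lay below all 4 Tfh values. Sums and shares with that row are not given here, so the order of the Bcl2 shares may depend on the row. Left out of the sum were 6 other listed pro-survival genes, among them Bcl2a1 copies. They summed to 348 to 357 RPKM in Tfh Tomato+ and 236 to 269 in Tfh Tomato-. In non-Tfh cells they summed to 426 to 454 in Tomato+ and 253 to 302 in Tomato-. In the spleen they summed to 79.0 to 80.6 in ZsGreen- and 110 to 112 in ZsGreen+. The low place of Tfh cells thus describes Mcl1, Bcl2l1 and Bcl2 only. These sums and shares were not tested.

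**Figure D4:**
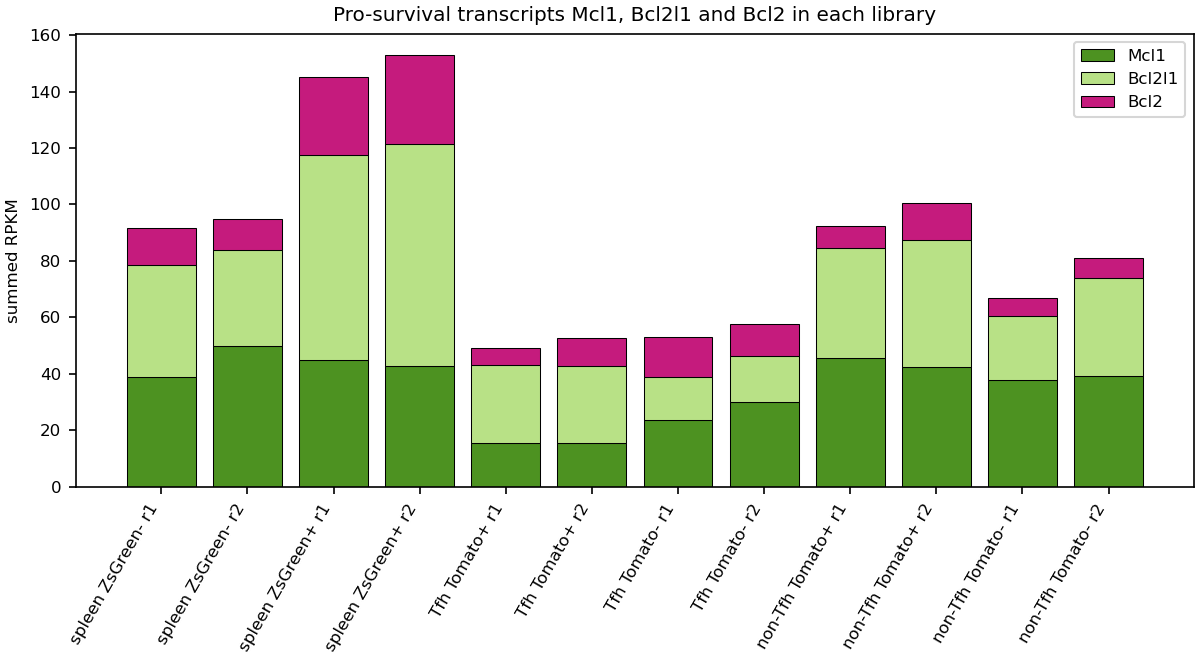
Summed RPKM of Mcl1, Bcl2l1 and Bcl2 (vertical axis, stacked bars from 0) in each of the 12 libraries (horizontal axis; r1 and r2 are the replicates). The 2 ZsGreen+ bars are the tallest at 145 and 153, and the 4 Tfh bars are the shortest at 49.0 to 57.5. Other pro-survival genes, such as the Bcl2a1 copies, are not in the bars.

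Promoters of 3 Bcl2 family genes are shown for comparison, Mcl1 because it was called in the lymph node and Bcl2 and Bcl2l11 because they rose together in the spleen. Capitals mark a motif match where there is one, on the same build and strand convention as for Fasl, and the choice of genes was made after the values were seen.
Mcl1 (chr3:95658471-95658720, plus strand): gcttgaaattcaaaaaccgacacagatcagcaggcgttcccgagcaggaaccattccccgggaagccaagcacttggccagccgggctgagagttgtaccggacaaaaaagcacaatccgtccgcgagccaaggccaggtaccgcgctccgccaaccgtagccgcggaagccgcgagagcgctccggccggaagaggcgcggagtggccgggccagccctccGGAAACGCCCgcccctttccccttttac
Bcl2 (chr1:106714291-106714540, minus strand): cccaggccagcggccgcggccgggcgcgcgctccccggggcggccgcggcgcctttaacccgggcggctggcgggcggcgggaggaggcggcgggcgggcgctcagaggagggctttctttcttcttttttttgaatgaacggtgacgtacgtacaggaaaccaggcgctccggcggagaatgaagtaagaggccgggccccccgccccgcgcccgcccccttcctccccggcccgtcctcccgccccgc
Bcl2l11, the first of 2 entries (chr2:128125788-128126037, plus strand): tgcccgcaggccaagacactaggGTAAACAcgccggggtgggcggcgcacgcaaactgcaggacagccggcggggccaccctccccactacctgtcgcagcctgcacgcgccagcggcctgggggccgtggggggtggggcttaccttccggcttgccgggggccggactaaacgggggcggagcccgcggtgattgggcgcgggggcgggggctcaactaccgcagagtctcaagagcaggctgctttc
Mcl1 held the reverse complement of the NF-kB motif at positions -28 to -19, Bcl2l11 the forkhead motif at -227 to -221, and Bcl2 none of the 4. Fas held the STAT motif at -93 to -85, and the second Bcl2l1 entry the NF-kB motif at -218 to -209. No promoter entry held 2 matches, so none overlapped.

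None of the BH3-only genes passed in the lymph node. Bcl2l11 measured 0.61 and 15.0 RPKM in Tfh Tomato+, from 84 and 1771 reads, the widest gap among the 10 genes at 24.5 times. The other 2 Bcl2l11 rows gave 0.841 to 1.02 times the row used over all libraries. The rows are of near-equal length (5037, 4869 and 4779 bases) and may count the same reads. Their agreement is therefore no separate support for the low value. In the other 6 lymph node libraries Bcl2l11 ranged from 5.11 to 9.74 RPKM. The low library had reads for each of the other 9 genes, with Fas at 43.8 and Bcl2l1 at 27.8 RPKM. Bid measured 10.8 and 10.4 RPKM in Tfh Tomato+, 33.9 and 34.7 in Tfh Tomato-, 25.8 and 21.1 in non-Tfh Tomato+ and 9.71 and 34.9 in non-Tfh Tomato-. The Tfh groups were clearly apart and the non-Tfh Tomato- replicates far apart, and the Tomato difference in Tfh cells did not pass (log2 -1.71 ± 0.62 SE, edgeR adjusted p = 0.80). Pmaip1 measured 30.2 and 49.4 RPKM in Tfh Tomato+, 38.4 and 40.7 in Tfh Tomato-, 21.8 and 20.1 in non-Tfh Tomato+ and 30.0 and 40.8 in non-Tfh Tomato-. It was lowest in non-Tfh Tomato+, and Tfh against non-Tfh among Tomato+ cells gave 0.83 ± 0.33 SE (adjusted p = 0.58). All 8 lymph node values of Pmaip1 were above the 5.33 to 9.53 RPKM of the spleen.

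Fas, the receptor, measured 43.8 and 45.7 RPKM in Tfh Tomato+, 44.7 and 29.8 in Tfh Tomato-, 16.8 and 22.2 in non-Tfh Tomato+ and 38.2 and 8.05 in non-Tfh Tomato-. In the row used, every Tfh value lay above both non-Tfh Tomato+ values, but the non-Tfh Tomato- replicates spanned nearly the whole range. No lymph node comparison of Fas passed (lowest edgeR adjusted p = 0.52). The shorter Fas transcript row gave 0.482 to 1.82 times the RPKM of the row used, the top value in non-Tfh Tomato- replicate 2, where it read 14.6 against 8.05 RPKM. In that shorter row Tfh Tomato- (22.8 and 17.6 RPKM) overlapped non-Tfh Tomato+ (14.2 and 23.2). Tfh Tomato+ (40.9 and 39.2 RPKM) lay above both groups in it. The second Bcl2 row gave 1.30 to 2.63 times the row used, and in it the Tomato states overlapped in Tfh cells, at 12.003 and 23.7 RPKM in Tomato+ against 28.2 and 14.6 in Tomato-. The effectors also did not pass: Bax measured 126 to 204 RPKM over the 8 libraries (lowest adjusted p = 0.75) and Bak1 1.47 to 3.97, below the 7.21 to 8.73 of the spleen (lowest adjusted p = 0.95). Per length, Bax was the most abundant of the 10 in each lymph node library except non-Tfh Tomato+ replicate 1, where Fasl at 155 was level with it at 154. Bak1 was the least abundant in each except Tfh Tomato+ replicate 1, where Bcl2l11 was lower.

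Counted without a test of size, the groups did not overlap for 5 of the 10 genes for the Tomato states in Tfh cells (34.9% of tested genes) and for 6 in non-Tfh cells (37.8%). For Tfh against non-Tfh the count was 7 among Tomato+ cells (39.2%) and 4 among Tomato- cells (37.1%). With 4 libraries against 4 it was 1 for the populations (6.56%) and 0 for the Tomato states (5.34%).

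Of the other cell death genes, 49 of 53 were tested in the lymph node. Tnf, which encodes the death-receptor ligand TNF, was the only one called. It was called for Tomato in non-Tfh cells, where 0.332% of all tested genes were called, and averaged over both populations, where 0.656% were. It measured 263 and 344 RPKM in non-Tfh Tomato+ and 53.6 and 71.2 in non-Tfh Tomato- (log2 2.31 ± 0.25 SE, edgeR adjusted p = 0.0215). In Tfh cells it measured 170.2 and 161 in Tomato+ and 122 and 108 in Tomato- libraries, and averaged over both populations it rose by 1.41 ± 0.17 SE on the log2 scale (adjusted p = 0.0106). Both Tomato+ values exceeded both Tomato- values in each population, as for Fasl. The Tomato states did not overlap, in either direction, for 34.9% of tested genes in Tfh cells and 37.8% in non-Tfh cells. How the Tnf calls held under the alternatives is not given here, so they are not shown to be firmer than those of Fasl and Mcl1. The remaining 48 did not pass in any of the 7 lymph node comparisons.

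The genes whose levels ran most like those of 3 members over the 8 lymph node libraries were sought among 8277 genes by Pearson's r of log2(RPKM + 1), as a description over libraries that share groups. For Fasl they were Ahnak (r = 0.97), Tmsb4x (0.97) and S100a13 (0.97). Ahnak, a gene for a very large scaffold protein, measured 15.5 and 15.3 RPKM in Tfh Tomato+, 2.95 and 2.34 in Tfh Tomato-, 37.2 and 28.6 in non-Tfh Tomato+ and 14.6 and 10.4 in non-Tfh Tomato-, the same order of groups as Fasl. For Fas they included Aebp2 (0.97) and Smpdl3a (0.97), and for Bcl2 they were Nsd1 (0.98), Ank (0.94) and Zfp106 (0.93). At least 0.9 was reached by 66 genes for Fasl, 46 for Fas and 6 for Bcl2.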

How the data were processed

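RNA-seq of 12 libraries was used; 8 DNase libraries were not analysed here. Polyadenylated RNA was selected, per the labels' protocols. The submitters' processing notes name CASAVA 2.18, Bowtie2, SICER 1.1 and edgeR with build mm9 without assigning them to steps. The deposited tables hold whole-number read counts and RPKM for 29257 RefSeq transcript rows, both made by the authors. The 4 spleen tables carry their Count and Size headers the wrong way round: the values under Size were taken as read counts because, per transcript length, they are proportional to the authors' RPKM, and the values under Count match the transcript lengths of all 12 deposited tables. For each symbol the row with most reads over the libraries was kept.

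Counts were tested with edgeR 4.0.16 in R 4.3.3 (TMM, filterByExpr, quasi-likelihood F test, Benjamini-Hochberg over all tested genes, adjusted p below 0.05), the 4 spleen libraries alone and the 8 lymph node libraries together; all 10 genes passed the filter in both. SE is the log2 fold change divided by the square root of F. The tests were checked on data simulated with the same spread for both tissues. That spread was wider than the one measured in the spleen and narrower than that in the lymph node. The check therefore does not cover the lymph node tests. Alternatives were DESeq2 1.42.0, median-of-ratios factors, no filter, limma 3.58.1 on log2(RPKM + 1) and log2(RPKM + 0.1) for genes at 1 RPKM or more in 2 libraries, the replicate block, the longest row, the 4 compared libraries alone, each library left out and replicate 2 of both Tomato- groups left out.

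The 10 genes are all named; up to 4 other cell death genes called in a comparison are named by adjusted p; the 3 genes most like Fasl, Fas and Bcl2 are named from those with a group mean of at least 5 RPKM. Some genes that this rule names are not reported here. The members and lists were chosen with earlier results of these data known. Which lymph node fold changes are printed (all for Fasl and Mcl1, others at an unadjusted p below 0.05) was settled after the values were seen.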

Additional observations from a re-analysis of the deposited data

Results flagged for a closer look

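Bcl2 and Mcl1 were set apart because the Tomato states did not overlap and lay in opposite orders in Tfh and non-Tfh cells. In Tfh cells alone the Tomato states did not overlap for 34.9% of tested genes, and in non-Tfh cells alone for 37.8%. The share of all genes apart in both populations in opposite orders was not counted. The p-values below rest on the values that picked these genes and are no separate support for the pattern. Bcl2 measured 5.91 and 10.01 RPKM in Tfh Tomato+ against 14.0 and 11.2 in Tfh Tomato-, but 7.72 and 13.1 in non-Tfh Tomato+ against 6.05 and 7.03 in non-Tfh Tomato-. In its other transcript row the Tomato states overlapped in Tfh cells, at 12.003 and 23.7 RPKM in Tomato+ against 28.2 and 14.6 in Tomato-, so there the pattern was lost. In the row used, the difference of the 2 Tomato effects was -1.39 ± 0.59 SE on the log2 scale (edgeR unadjusted p = 0.044, adjusted p = 0.77). Mcl1 measured 15.3 and 15.5 RPKM in Tfh Tomato+ against 23.7 and 29.9 in Tfh Tomato-, and 45.5 and 42.4 in non-Tfh Tomato+ against 37.9 and 39.1 in non-Tfh Tomato-. Its Tomato difference was -0.81 ± 0.25 SE in Tfh (adjusted p = 0.73) and 0.22 ± 0.25 SE in non-Tfh cells (adjusted p = 0.90), and the difference of the effects was -1.03 ± 0.36 SE (unadjusted p = 0.0195, adjusted p = 0.77). Neither gene passed the test of the difference over all genes.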

How the results depend on the processing

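The spleen call counts held within 1.5 times under every alternative run, and of the 7 spleen calls only that of Pmaip1 was lost in any: the log2 fold change was -0.44 in limma on log2(RPKM + 1), -0.50 on log2(RPKM + 0.1) and -0.27 without ZsGreen- replicate 1. Mcl1 in the spleen, not called, ranged from -0.24 without ZsGreen- replicate 1 to 0.14 without ZsGreen- replicate 2, a change of sign. Lymph node counts depended on the tool. DESeq2 called 262 genes for Tomato in Tfh (edgeR 13), 554 in non-Tfh (39), 410 for Tfh against non-Tfh in Tomato+ (9), 539 in Tomato- (21), 725 averaged (126), 640 for Tomato averaged (77) and 143 for the difference of effects (0). In the first 4 of these, in that order, limma on log2(RPKM + 1) called 29, 71, 29 and 43 and on log2(RPKM + 0.1) 21, 59, 23 and 26, no filter gave 25, 65, 49 and 52, the 4 compared libraries alone 0, 3, 0 and 0, and leaving out replicate 2 of both Tomato- groups 0, 6, 0 and 0, with 27 and 46 in the averaged Tfh and Tomato comparisons. Leaving out each library gave 2 to 18, 5 to 46, 0 to 12, 6 to 24, 46 to 84 averaged for Tfh and 38 to 94 averaged for Tomato. Same-numbered lymph node replicates did not deviate together (r = -0.013 to 0.028), and the 1 spleen pair gave 0.12. With 2 libraries a group, these values cannot show whether same-numbered samples share animals or a sort. With the replicate block the counts were 12, 23, 1, 22, 75 and 62 in the lymph node and 3359 in the spleen (3074 without).

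Members called moved from 0 to 1 through Fasl for Tomato in Tfh (DESeq2, no filter, limma on log2(RPKM + 1), the replicate block and without Tfh Tomato+ replicate 2, range 0 to 1 over libraries left out), through Mcl1 for Tfh against non-Tfh in Tomato+ (1 in DESeq2 and with no filter) and through Fasl in Tomato- (1 in DESeq2, with no filter and with the replicate block). The 2 members called in the averaged Tfh comparison became 1 in both limma fits and with the replicate block, 0 to 1 over libraries left out and 0 without replicate 2 of both Tomato- groups. The 1 called in the averaged Tomato comparison became 0 to 1 and 0. Over the 30 printed fold changes 401 of 441 alternative values kept direction and call, 29 lost the call, 10 gained one and 1 changed sign. Of 829 alternative values of the 50 fold changes not printed, none of them called, 83 changed sign. With 2 libraries a group and a wide lymph node spread, a member that did not pass there is not shown to be unchanged.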
